A study of Mus musculus with 6 samples.

Results

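Forkhead (Fox) genes code for transcription factors that share a winged-helix DNA-binding domain and are named by subfamily letters. Some of them, such as the FoxA factors of the endoderm, can bind their sites in closed chromatin and open it, and others act at the end of a signalling pathway. FoxH1 is the DNA-binding partner of the SMAD proteins downstream of Nodal. Most FoxO factors are kept out of the nucleus when AKT is active. In embryonic stem cells Foxd3 is known for its part in maintaining pluripotency and in the change to the primed state, whereas most other members are known from differentiated tissues. The 44 members were all protein-coding RefSeq genes of GRCm38 (the assembly that mm10 names) whose symbol is Fox followed by a letter from a to s and a digit, out of 21774 protein-coding genes. They fall into 19 subfamilies on 16 chromosomes, with 3 genes (Foxo4, Foxp3 and Foxr2) on X.

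Accessible chromatin was measured by ATAC-seq, an assay that uses the Tn5 transposase to insert sequencing adapters into open DNA. The cells were mouse embryonic stem cells (mESCs) of the V6.5 line, grown with LIF on irradiated fibroblasts. The paper's culture methods for mESCs list CHIR99021 and PD0325901 besides LIF and serum, and name no fibroblasts. Which account holds for these libraries cannot be told here. The series has 6 samples: 2 of untreated V6.5 cells, 2 of mESCs with a degron on ZBTB21 (a tag that lets the protein be degraded) at 0 h and 2 at 6 h. Only 1 peak list, of the untreated condition, was used, and the degron samples were not analysed here. The treatment text shared by all labels is about doxycycline given to degron cells, while the untreated libraries are labelled as V6.5 cells that had no treatment. The list is 1 for both replicates and gives no value for either, so that neither a replicate spread nor a library's depth can be read from it. All counts below are therefore descriptions with no test, the main ones set beside the same count over all protein-coding genes, and the 95% Wilson intervals cover counting error alone.

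The list holds 41014 peaks, each with a score of the authors between 540 and 953 (median 696). A gene without a listed peak is not shown to be closed: of 10 mESC marker genes 3 (Pou5f1, Nanog and Zfp42) had a peak within 1 kb of a transcription start site (TSS) and 9 had one in the gene span plus 20 kb, and Klf4 had none. Of 10 markers of embryonic fibroblasts, the cells of the feeder layer, 1 (Thy1) had a promoter peak and 5 had a peak in the wider window. Twist2, Prrx1, Postn, Dcn and Lum had none. Among all protein-coding genes, 27.6% held a promoter peak and 73% a peak in the gene span plus 20 kb. With 10 genes in each list, whether either list departs from these shares was not tested. The part of feeder DNA in the Fox peaks was not tested, and a site open in few cells and one weakly open in all cells cannot be told apart in bulk chromatin.

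Promoter sequences show how differently the members are built, and 5 are printed here, with and without a peak, from CpG-poor to CpG-rich. They are taken from the RefSeq promoter table (GRCm38), which held 28 of the 44 genes. Each is the 250 bases before the TSS, on the gene's strand, with CpG dinucleotides, the target of DNA methylation, in capitals. The Foxd1 and Foxr2 promoters held a peak, and the Foxd3, Foxo3 and Foxk2 promoters held none. Foxd1 lies at chr13:98353995-98354244 (+), Foxr2 at chrX:153118538-153118787 (+), Foxd3 at chr4:99656049-99656298 (+), Foxo3 at chr10:42276696-42276945 (-) and Foxk2 at chr11:121259737-121259986 (+).
Foxd1: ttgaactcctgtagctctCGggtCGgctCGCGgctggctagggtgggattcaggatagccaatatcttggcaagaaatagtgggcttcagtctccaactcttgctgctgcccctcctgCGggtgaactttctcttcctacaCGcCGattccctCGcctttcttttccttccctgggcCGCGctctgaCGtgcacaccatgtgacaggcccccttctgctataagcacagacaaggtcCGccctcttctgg
Foxr2: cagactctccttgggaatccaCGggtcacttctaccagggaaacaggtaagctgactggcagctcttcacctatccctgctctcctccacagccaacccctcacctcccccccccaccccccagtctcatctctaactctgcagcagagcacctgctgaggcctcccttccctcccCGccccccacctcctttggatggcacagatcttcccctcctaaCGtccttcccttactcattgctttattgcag
Foxd3: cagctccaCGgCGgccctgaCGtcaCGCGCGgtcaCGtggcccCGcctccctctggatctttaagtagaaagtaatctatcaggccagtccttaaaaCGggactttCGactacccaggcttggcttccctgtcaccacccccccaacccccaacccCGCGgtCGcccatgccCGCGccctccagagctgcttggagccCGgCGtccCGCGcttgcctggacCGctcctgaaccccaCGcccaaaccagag
Foxo3: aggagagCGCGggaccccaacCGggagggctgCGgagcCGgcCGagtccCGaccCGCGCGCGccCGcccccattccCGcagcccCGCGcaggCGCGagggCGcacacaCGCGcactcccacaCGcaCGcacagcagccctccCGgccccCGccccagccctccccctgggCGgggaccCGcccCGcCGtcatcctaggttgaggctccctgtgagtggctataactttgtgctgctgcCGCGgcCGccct
Foxk2: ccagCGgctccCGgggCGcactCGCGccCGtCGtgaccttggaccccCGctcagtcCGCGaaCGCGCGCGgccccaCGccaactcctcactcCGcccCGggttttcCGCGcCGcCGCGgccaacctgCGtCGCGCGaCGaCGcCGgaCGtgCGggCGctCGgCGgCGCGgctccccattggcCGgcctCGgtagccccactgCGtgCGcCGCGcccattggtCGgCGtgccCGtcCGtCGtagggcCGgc
These windows held 12 CpGs at Foxd1, 3 at Foxr2, 21 at Foxd3, 31 at Foxo3 and 48 at Foxk2. Their GC content was 57.2% at Foxd1, 58.8% at Foxr2, 65.6% at Foxd3, 76.4% at Foxo3 and 78.4% at Foxk2. They were picked to show this range and do not stand for the other members.

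Near the start site, Fox genes held a listed peak about as often as other genes. A peak lay within 1 kb of a TSS at 13 of 44 Fox genes (29.5%, interval 18.16 to 44.22), against 27.6% of all protein-coding genes. Within 5 kb it was 22 of 44 (50%, interval 35.83 to 64.17) against 38.2%, and in the gene span plus 20 kb on each side 36 of 44 (81.8%, interval 68.04 to 90.49) against 73%. The interval of the Fox share held the share of all genes at 1 kb and at 5 kb, and also in the widest window. The first peak lay between 1 and 5 kb at 9 Fox genes (20.5%), compared with 10.6% of all genes. It did so at 28.2% of Hox, 15.4% of Tbx, 10.5% of Sox and 0% of Gata genes. The Fox count rests on the curated start sites: Foxh1 and Foxn4, among the 9, had a peak within 1 kb of the gene's annotated 5′ end.

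**Figure D1:**
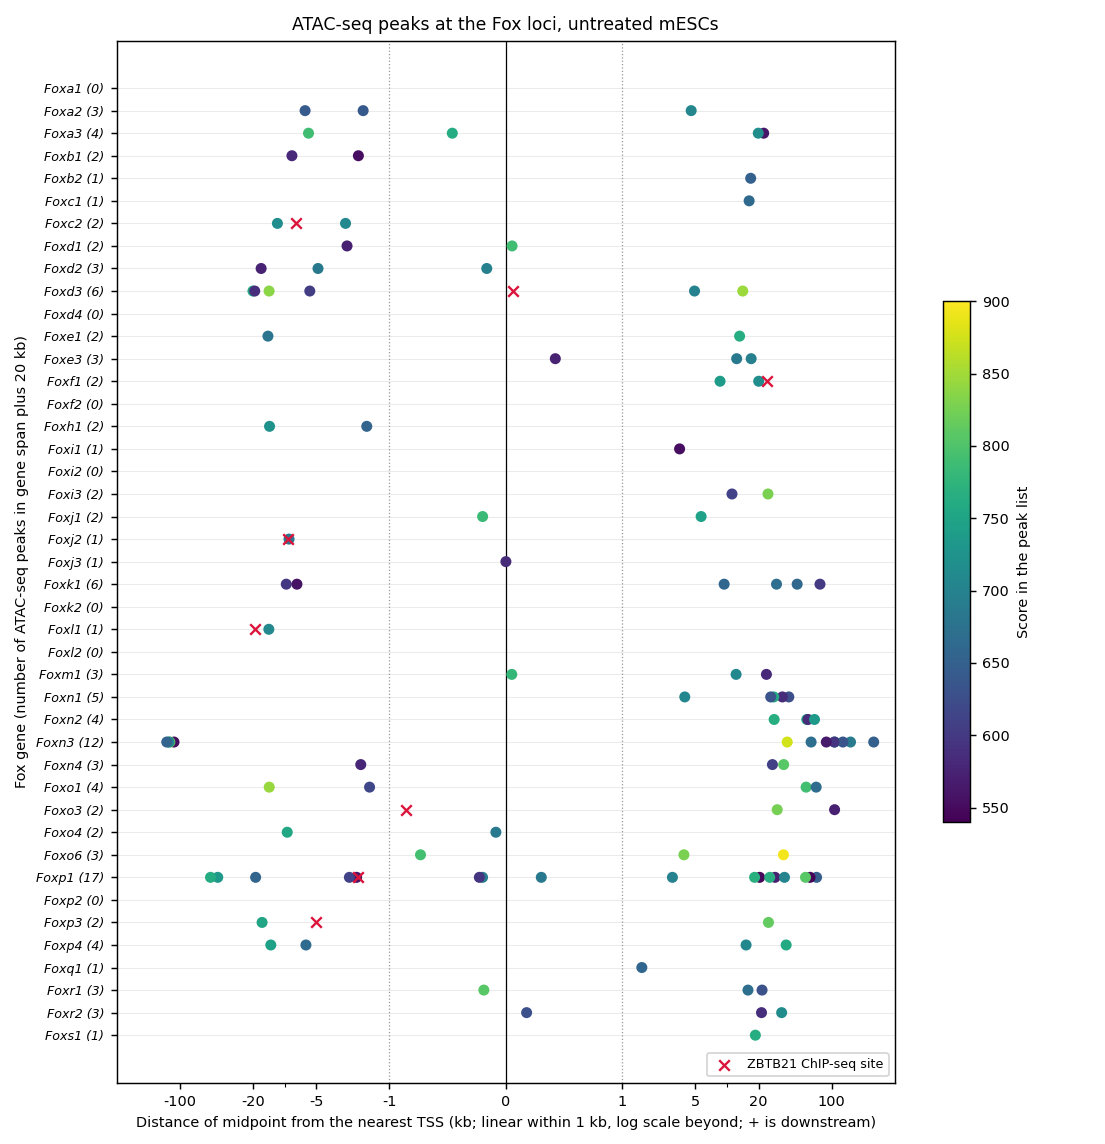
ATAC-seq peaks (points, coloured by score) and ZBTB21 ChIP-seq sites (crosses) at 43 Fox genes, by the distance of their midpoint from the nearest TSS in kb, linear within 1 kb and logarithmic beyond, with the number of peaks in brackets. 7 rows are empty, and Foxp1 (17) and Foxn3 (12) hold the most peaks.

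The peak covered a TSS at 11 of the 13 genes with a promoter peak. The exceptions were Foxo6, a FoxO gene of the brain, with a peak of score 793 whose edge lay 402 bp upstream, and Foxq1, known from the hair follicle, with a peak of score 657 at 866 bp downstream. The highest promoter score was that of Foxr1 (807), followed by Foxo6 (793) and Foxd1 (789), a gene of the kidney stroma. Foxj1, the master regulator of motile cilia, had 784 and Foxm1, which drives genes of mitosis, 779. The next scores were 761 at Foxa3, 696 at Foxd2 and 691 at Foxp1. Foxo4 had 687, Foxr2, an oncogene in some tumours, 628, Foxj3 584 and the lens gene Foxe3 574. The Foxe3 peak was the widest at any Fox locus (1958 bp), and its score lay at the 9.697th percentile of the list. Of the 13 best promoter scores, 7 lay above or at the list median and 6 below it.

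At 4 of the 13 genes the promoter peak also lay within 1 kb of the TSS of another gene. It was shared with Sympk at Foxa3, with Foxd2os at Foxd2, with Frg2f1 at Foxj3 and with Rhno1 at Foxm1, so that these peaks cannot be given to the Fox gene alone. Foxp1, a repressor gene with 4 curated start sites, had a peak at 3 of them, with scores of 691, 685 and 596. Just outside the 1 kb window came Foxh1, whose nearest peak edge lay 1329 bp upstream of the TSS, Foxo1 (1384 bp), Foxa2 (1399 bp), Foxn4 (1649 bp), Foxb1 (1824 bp) and Foxc2 (2384 bp). All 6 lay upstream of the curated start. The peaks of Foxh1 and Foxn4 lay within 1 kb of the gene's annotated 5′ end, at 76671614 on chromosome 15 and 114274418 on chromosome 5, and count as promoter peaks where that end is used. The Foxh1 peak (score 655) was also within 1 kb of the TSS of Ppp1r16a.

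**Figure D2:**
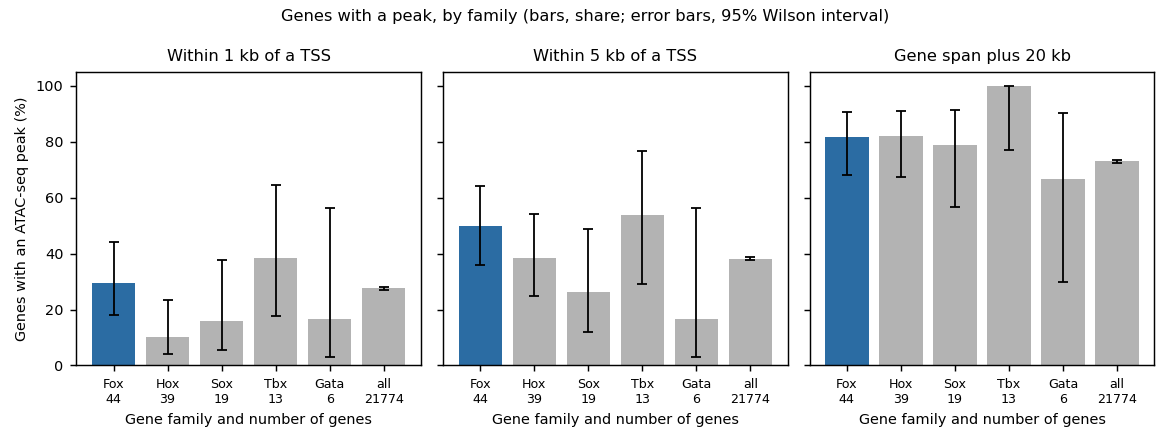
Share of genes (%) with an ATAC-seq peak in the 3 windows, for Fox, for 4 other families of transcription factors and for all protein-coding genes, with the number of genes under each bar and 95% Wilson intervals as error bars. The Fox bars stand at 29.5, 50 and 81.8%, and their intervals overlap those of the other families in each window.

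Other families of developmental transcription factors gave a reference for genes of this kind. A promoter peak was held by 4 of 39 Hox genes (10.3%), 3 of 19 Sox genes (15.8%), 5 of 13 Tbx genes (38.5%) and 1 of 6 Gata genes (16.7%). The interval of the Hox share (4.061 to 23.58%) and that of the Fox share overlapped. In the gene span plus 20 kb the Hox (82.1%) and Sox (78.9%) shares were close to that of Fox, and all 13 Tbx genes had a peak. Hox genes lie in clusters, so that their windows overlap, and 5 of the 111 Fox peaks likewise lay in the windows of neighbouring Fox genes.

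By subfamily, both FoxR genes had a promoter peak, as did 2 of 3 FoxJ, 2 of 4 FoxD and 2 of 4 FoxO genes. None of the 4 FoxN genes did, although all 4 had peaks in the wider window, with a median of 4.5. This rests on the curated start sites. With the 5′ end of the gene in their place, Foxn3 (a peak of score 552 at its end) and Foxn4 had a promoter peak. Foxr2 then lost its own. The Foxn3 peak was also within 1 kb of the TSS of Gm26839. None of the FoxB, FoxC, FoxF, FoxI, FoxK and FoxL genes had a promoter peak, nor had Foxs1. Foxh1 had none at its curated start, but had one with the gene's 5′ end in its place. With at most 4 genes each, subfamilies cannot be ranked.

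By known role, the 6 Fox genes linked to stem cells or the early embryo (Foxd3, Foxh1, Foxo1, Foxo3, Foxp1 and Foxm1) all had a peak in the wider window and 5 had one within 5 kb. The exception was Foxo3, and 2 of the 6 (Foxp1 and Foxm1) had a promoter peak at a curated start. Of the 5 mesoderm genes (Foxc1, Foxc2, Foxf1, Foxf2 and Foxl1) 0 had a promoter peak and 1 had a peak within 5 kb. Of 6 neural genes 1 (Foxd1) had a promoter peak, and of 3 endoderm FoxA genes 1 (Foxa3). Among 9 broadly expressed genes of the cell cycle and metabolism, 3 (Foxm1, Foxj3 and Foxp1) had one. In the wider window a peak was held by 4 of the mesoderm, 4 of the neural, 2 of the FoxA and 8 of the broadly expressed genes. The shares of all protein-coding genes were 27.6% at 1 kb, 38.2% at 5 kb and 73% in the wider window, and no role held more than 9 genes.

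Genes that work with Fox factors were counted in the same way, again beside the 27.6% of all protein-coding genes with a promoter peak. A promoter peak was found at 2 of 8 partners of FoxH1 in Nodal signalling, namely Nodal, the ligand, and Smad3, a transducer. It was found at 6 of 12 regulators of the FoxO factors, among them Akt1, Pdpk1 and Pik3ca, kinases that act against them, and Sirt1, a deacetylase. Of 10 FoxO target genes 4 had one (Cat, Ccng2, Sesn3 and Txnip). Of 10 partners and targets of FoxM1 7 had one, including the cyclin genes Ccnb1 and Ccnb2 and the mitotic genes Aurkb, Cenpf and Birc5. Foxm1 itself was among the members with a promoter peak, as were Foxo4 and Foxo6. Foxo1 and Foxo3 were not, nor was Foxh1 at its curated start.

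Around the genes, Fox loci were denser in peaks than the median gene. The median density was 4.20 peaks per 100 kb of gene span plus 20 kb, against 2.33 for all protein-coding genes, and 30 of 44 Fox genes lay above that median. Both sets had a median of 2 peaks, and Fox genes were shorter (median 5194 bp against 17219 bp), so that the windows differed in length. Among genes under 10 kb the medians were 4.38 for 26 Fox genes and 2.22 for all genes. With 50 kb on each side of the gene they were 3.14 for Fox and 2.59 for all genes. Hox genes had a density of 4.21, Tbx 3.18, Sox 2.38 and Gata 1.55.

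**Figure D3:**
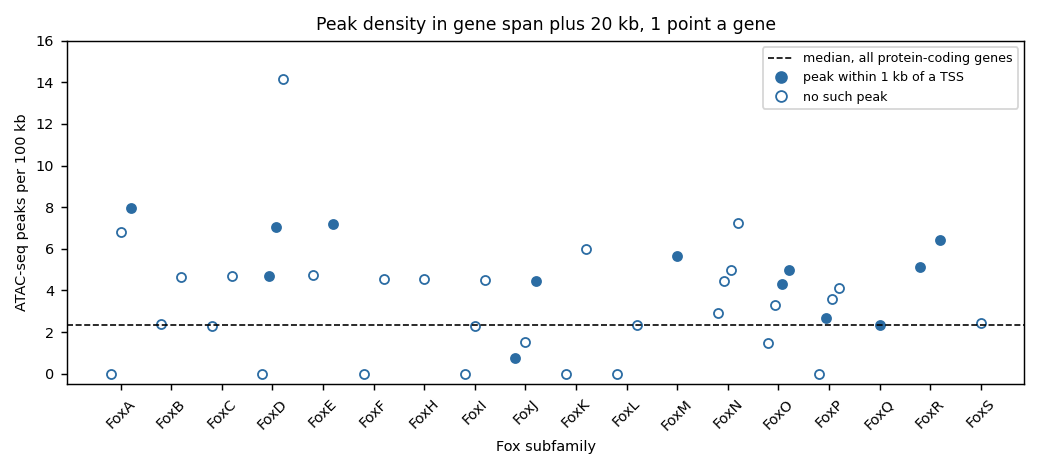
ATAC-seq peaks per 100 kb of gene span plus 20 kb for 43 Fox genes by subfamily, filled where a peak lay within 1 kb of a TSS, with the median of all protein-coding genes (2.33) as a dashed line. Foxd3 stands highest at 14.16 with no promoter peak, and 7 of the genes drawn lie at 0.

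The Foxd3 locus had the highest density of any Fox gene (14.16, the 99.3rd percentile of all genes) with 6 peaks. The peaks scored 838, 760, 587 and 604 upstream and 699 and 846 downstream, and all 6 were intergenic. The nearest edge lay 4720 bp downstream of the TSS, outside the gene. Among the 10 mESC markers, Pou5f1 (15.64) lay above Foxd3 and Zfp42 (11.55), Sox2 (9.42) and Nanog (8.48) below it. The other markers lay lower still, from Esrrb (7.48) down to Klf4 (0).

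The longest Fox genes that held peaks also held the most. Foxp1 spans 597405 bp and had 17 peaks with scores from 544 to 807, and Foxn3, which spans 373587 bp, had 12 with scores from 552 to 875. Their densities were 2.67 and 2.90, close to the median of all genes. Foxk1 had 6 peaks, none within 5 kb of its TSS, and Foxn1, the master gene of the thymic epithelium, had 5. Foxa3, Foxn2, Foxo1 and Foxp4 had 4 each. Foxp2, a gene of the nervous system with a span of 540629 bp, had none.

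In all, 8 Fox genes had no peak in their window. Among them were Foxa1, a pioneer factor of endoderm, Foxd4, Foxf2, Foxi2, Foxk2, Foxl2 of the ovary and Foxp2. The nearest peak to a TSS lay 29832 bp away at Foxa1, 30403 bp at Foxk2, 32959 bp at Foxi2, 57418 bp at Foxf2, 66051 bp at Foxl2 and 79231 bp at Foxd4. It lay farthest away, at 527345 bp, at Foxp2. The median over all 44 genes was 5369 bp.

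The Fox windows held 111 distinct peaks (116 when shared peaks are counted at each gene). Of these 15 lay within 1 kb of a Fox TSS, 16 between 1 and 5 kb and 80 (72.1%) beyond 5 kb. This split depends on the window, the gene span plus 20 kb, and was not made for all genes. Foxp1 and Foxn3, the longest genes with peaks, held 17 and 12 of the 111. The 15 promoter peaks were the widest, with a median of 983 bp against 486.5 bp at 1 to 5 kb and 552.5 bp beyond. Their median score was 691, compared with 648 and 685. By annotation 24 peaks lay in an exon, 47 in an intron (32 in an intron of a Fox gene) and 40 between genes. Over all 111 the median score was 686, the width 596 bp and the GC content 54.23%, against 696, 547 bp and 52.1% in the whole list.

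The 5 highest scores at Fox loci were all beyond 5 kb from the TSS. The peak of score 894 (chr4:120252314-120253070) lay in an intron of Gm36134, 34191 bp downstream of the Foxo6 TSS. The peak of 875 (chr12:99411853-99413177) lay in an intron of Foxn3, 36897 bp from its TSS. Foxd3 had 846 (chr4:99670155-99670713) at 13856 bp and 838 (chr4:99641917-99642568) at 13731 bp, on either side of the gene. The peak of 845 near Foxo1 (chr3:52253840-52254810) lay in an intron of Gm30125, 13527 bp upstream of the Foxo1 TSS.

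Peak sequences were searched for the forkhead core TGTTTAC and for the octamer ATGCAAAT, the motif bound by POU factors such as OCT4, on both strands (reverse complements GTAAACA and ATTTGCAT). Neither motif contains the other. The middle 300 bases (plus strand, GRCm38) are shown for the best-scored Fox peak, for the best peak of Foxd3, and for the one peak with a forkhead core there, with motif matches in capitals. The Foxo6 stretch is chr4:120252543-120252842, that of Foxd3 chr4:99670285-99670584 and that of Foxn3 chr12:99198714-99199013.
Foxo6: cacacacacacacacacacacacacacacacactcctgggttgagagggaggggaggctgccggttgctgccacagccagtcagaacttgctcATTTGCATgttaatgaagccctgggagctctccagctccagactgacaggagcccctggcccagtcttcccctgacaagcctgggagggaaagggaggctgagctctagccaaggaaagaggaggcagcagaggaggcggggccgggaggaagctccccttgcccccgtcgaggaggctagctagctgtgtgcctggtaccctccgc
Foxd3: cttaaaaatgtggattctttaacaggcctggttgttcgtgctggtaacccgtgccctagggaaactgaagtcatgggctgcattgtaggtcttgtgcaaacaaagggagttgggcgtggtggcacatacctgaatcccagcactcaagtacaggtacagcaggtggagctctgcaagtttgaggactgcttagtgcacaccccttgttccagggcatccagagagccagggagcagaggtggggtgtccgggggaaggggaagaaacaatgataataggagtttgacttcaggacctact
Foxn3: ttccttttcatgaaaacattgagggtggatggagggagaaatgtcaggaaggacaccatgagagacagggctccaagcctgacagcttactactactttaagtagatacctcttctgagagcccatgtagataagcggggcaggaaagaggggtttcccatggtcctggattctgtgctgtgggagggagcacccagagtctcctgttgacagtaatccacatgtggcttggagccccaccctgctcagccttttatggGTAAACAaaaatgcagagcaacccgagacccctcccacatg
The octamer stood in the Foxo6 peak (score 894) and the forkhead core in the intronic Foxn3 peak (score 649), and neither in the Foxd3 peak. Only these exact strings were searched, and variants of either motif were not counted. The forkhead core was found in the middle of 1 of 111 Fox peaks (0.901%) and in 3.31% of the peaks of the list on assembled chromosomes. Over the whole peak it was found in 5 (4.5%) against 6.31%. The octamer was found in the middle of 1 (0.901%) against 2.85%. In the RefSeq promoter table, which runs from 250 bases before to 50 after the TSS, the forkhead core stood in 1 of 33 Fox promoters (3.03%, at Foxa1) and in 3.01% of all. The octamer stood in 0 of 33 and in 1.66% of all. A match is a run of letters and not a bound site, and with so few matches the shares of Fox peaks and of the list cannot be ranked.

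The promoters of Fox genes were CpG-rich more often than those of all genes, and those with and without a peak overlapped in composition. The median ratio was 0.673 for Fox and 0.562 for all genes, and it was of like size in the other families, at 0.724 for Hox, 0.730 for Sox, 0.686 for Gata and 0.670 for Tbx. The CpG ratio (observed CpGs over those that the C and G content alone would give) was at least 0.6 at 31 of 44 Fox genes (70.5%), against 46.9% of all genes, in the window of 250 bases before to 50 after a TSS. A promoter peak was held by 9 of these 31 (29%), against 37.1% of all genes with such a ratio. Below 0.6 it was 4 of 13 Fox genes (30.8%) against 19.3%. The median ratio was 0.624 at the 13 Fox genes with a promoter peak and 0.688 at the 31 without. Over all genes it was 0.702 with a peak and 0.459 without. GC content ran from 56.42 to 78.0% (median 63.0%) at the Fox genes with a promoter peak and from 44.17 to 79.33% (median 62.33%) at those without.

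**Figure D4:**
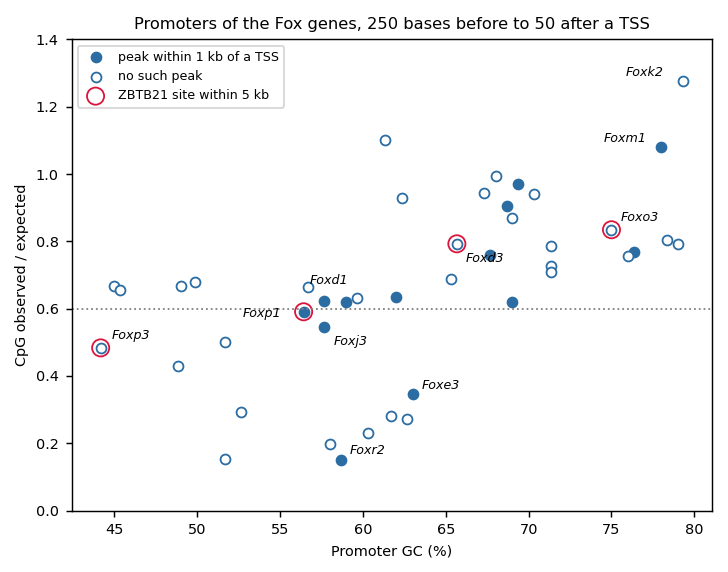
CpG ratio against GC content (%) of the promoter of each Fox gene, filled where a peak lay within 1 kb of a TSS and ringed where a ZBTB21 site lay within 5 kb, with a dotted line at 0.6. Filled and open points overlap, with Foxk2 (1.28, no peak) highest and Foxr2 (0.151, peak at its curated start) lowest.

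The extremes of this range were Foxk2, with the highest ratio (1.28) and no peak, and Foxr2, with the lowest (0.151) and a peak over its curated TSS. Foxo1 (1.10) and Foxk1 (0.994) were also CpG-rich with no promoter peak, and Foxm1 (1.08) was CpG-rich with one. Foxe3 (0.345) was also below 0.6 with a promoter peak, but in the window of 500 bases on either side its ratio was 0.722. The ratio and the peak of Foxr2 were taken at its curated start, which lies inside the gene. No peak lay within 1 kb of the 5′ end of Foxr2. Foxh1 (0.153) and Foxn3 (0.294) also had curated starts inside the gene, without a peak. Both had a peak within 1 kb of the gene's 5′ end, and the ratio at these ends was not computed.

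ZBTB21 is the zinc finger protein whose removal the study examined, and its sites in mESCs were taken as coordinates from the study's ChIP-seq list (1827 sites). A site lay within 1 kb of a TSS at 2 of 44 Fox genes (4.55%), against 5.94% of all protein-coding genes. Within 5 kb it was 4 (9.09%) against 6.84%, and in the gene span plus 20 kb 8 (18.2%, interval 9.513 to 31.96) against 14.3%. The interval of each Fox share held the background share. The 8 genes rest on 6 distinct sites, since 1 site at the TSS of Mthfsd lay in the windows of Foxc2, Foxf1 and Foxl1, which are neighbours on chromosome 8.

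The sites at Foxd3 (chr4:99655806-99656922) and at Foxo3 (chr10:42276603-42278502) covered the TSS, and hold the whole of the CpG-rich promoter stretches printed above. Neither overlapped a listed ATAC-seq peak, and the nearest peak lay 4097 bp from the Foxd3 site and 29330 bp from the Foxo3 site. The Foxp1 site lay 1533 bp upstream of a TSS and overlapped a peak of score 611. The site nearest to Foxp3, the gene of regulatory T cells, lay 4588 bp upstream, in an intron of Flicr and within 1 kb of the Ppp1r3f TSS, without a peak. The Foxj2 site, 8825 bp upstream, overlapped a peak of score 680. Of the 6 sites 2 (33.3%) overlapped a peak, against 801 of 1827 sites (43.8%) over the genome.

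From its long chromatin loops the study picked 500 ZBTB21-responsive ones, the top of those with both ZBTB21 sites and cohesin peaks that were lowered on ZBTB21 loss. Its 500 less-responsive loops are the bottom of those without such sites and peaks. Loops were ranked on signals at ATAC-seq peaks, so that peaks inside them are not independent of the classes. Responsive loops held 9 of 44 Fox genes (20.5%) against 15.9% of all genes, and less-responsive loops held 3 (6.82%) against 6.24%. Foxc2, Foxf1 and Foxl1 lay in the same 4 responsive loops of 625 to 775 kb, which held between 14 and 20 peaks. Foxd3, Foxh1, Foxj2, Foxo1, Foxp4 and Foxs1 each lay in 1 responsive loop. The most peaks were in that of Foxs1 (46 in 850 kb), followed by those of Foxp4 (37 in 600 kb) and Foxo1 (30 in 1200 kb, with the Foxo1 TSS outside the loop). Those of Foxh1 (525 kb), Foxd3 (625 kb) and Foxj2 (1650 kb) held 24, 13 and 7 peaks. Among the genes in less-responsive loops were Foxa2 (1 loop with 5 peaks) and Foxc1 (2 loops with 2 and 3 peaks). In the other families, responsive loops held 17 of 39 Hox genes (43.6%) and 7 of 19 Sox genes (36.8%). They held 3 of 13 Tbx genes (23.1%) and 1 of 6 Gata genes (16.7%). Hox genes lie in clusters and can share loops, and the loops behind these counts were not counted.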

How the data were processed

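ATAC-seq of untreated V6.5 mESCs (2 samples) was analysed from 1 deposited list of peaks in mm10 coordinates. The authors deposited 1 score per peak, a whole number. It was read as a scaled IDR score from its values alone, and used only within the list. The submitters' processing notes name cutadapt 2.6, Bowtie2 2.3.5.1 and MACS2 2.1.1. How these peaks were called, and whether cuts were shifted for Tn5, is not given in the sources used here. Depth per sample is unknown. Start sites were those of curated RefSeq transcripts (predicted ones where a gene had none). Overlap meant at least 1 bp. Coordinates of ZBTB21 sites and loops came from the study's supplementary lists. Named were Fox genes with a promoter peak, with a ZBTB21 site within 5 kb, with the most peaks, with the 5 best scores or with no peak. Other Fox genes were named by position (just outside 1 kb, in loops or with a more distant ZBTB21 site) or as list members after their values were seen. 1 member enters the counts but is not reported here. Members and lists were chosen with earlier results of these data known. Promoter values of genes with several start sites are means. Alternatives changed the overlap rule, score, start sites, windows and chromosomes. Counting was tested on simulated data. Versions were Python 3.11.15, scipy 1.17.1, pandas 2.3.3 and numpy 2.4.6.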

Additional observations from a re-analysis of the deposited data

How the results depend on the processing

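Of 32 alternatives over 10 results, 24 left the count within 1.5 times, or the value within its interval or spread, and 8 did not. With only peaks scored above the median, 6 Fox genes (13.6%, against 18% of all genes) had a peak within 1 kb, 11 (25%, against 24.8%) had one within 5 kb, and the median density was 1.65 (1.18 for all genes). The Fox share within 1 kb was then below that of all genes, as it also was on autosomes alone (26.8% against 28.1%). It was above with the gene's 5′ end as the TSS (34.1% against 25.4%), with all transcripts (36.4% against 29.9%) and within 2.5 kb (43.2% against 32.3%). In the gene span alone 22 Fox genes had a peak (50% against 49.6%). Over the 20 kb flanks alone, an alternative chosen after seeing the data like that of genes under 10 kb, the median density was 5.0 (2.5 for all genes), whereas with 50 kb on each side it was 3.14 (2.59 for all genes). A ZBTB21 site lay within 5 kb of a TSS at 4 Fox genes (9.09%, against 6.84% of all genes). Responsive loop anchors overlapped 2 Fox genes (4.55%, against 3.49% of all genes). The whole peak held a forkhead core at 5 Fox peaks (4.5%, against 6.31% of the list). No paired analysis was possible because the list is 1 for both replicates and gives no value per sample. For the same reason no replicate could be left out.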
